A study of Homo sapiens with 5 samples.

Results

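The mRNAs of 8 genes that code for enzymes of heme biosynthesis (*ALAS1*, *ALAS2*, *ALAD*, *UROS*, *UROD*, *CPOX*, *PPOX*, and *FECH*) were followed in TF-1 cells with and without *MTSS1*. The genes were chosen by name from the pathway and are 8 of the 27328 genes in the count table, and each of them was found there and passed the filter on low counts. The AML cell line TF-1 was derived from a human erythroleukemia and grows in the presence of GM-CSF. All cells had been transduced with a lentiviral vector that carries *Cas9*, *GFP*, and an sgRNA. The 2 control libraries (sgCtrl pools 1 and 2) came from cells with an sgRNA against the *renilla luciferase* gene, and the 3 *MTSS1* knockout libraries came from cells with sgMTSS1_1, sgMTSS1_2, or sgMTSS1_3. These are knockout pools 1, 2, and 3. Each library was made from 4 single-cell clones combined into a pool, so that a replicate is a pool of clones, every knockout pool has its own sgRNA, and the p-values measure the spread between such pools. Another control pool and the sgMTSS1_4 pool, which the authors left out as outliers, were not analysed here.

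Heme is an iron-containing ring that is built in a chain of enzymatic steps, which start in the mitochondrion, pass through the cytosol, and end in the mitochondrion. The first step joins glycine and succinyl-CoA and is carried out by ALAS1 in most cells and by the erythroid isoenzyme ALAS2 in red cell precursors. ALAD then forms the pyrrole unit, UROS closes the ring, UROD and CPOX shorten its side chains, PPOX oxidizes it, and FECH inserts the iron. Red cell precursors make most of the heme of the body, for hemoglobin, whereas every respiring cell needs some for cytochromes. The question asked of the data was whether the mRNAs of these enzymes differed between *MTSS1* knockout and control pools.

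Total counts were 2849979 and 3408827 in the control pools and 5442639 to 8854899 in the knockout pools, so that every knockout library was deeper than both control libraries, and depth and condition cannot be told apart. Mitochondrially encoded genes took 13.9% and 8.63% of the counts in the control pools and 6.71% to 7.44% in the knockout pools, and genes for ribosomal proteins took 7.56% and 9.31% against 11.9% to 17.7%. These shares moved with the condition, and their part in the results was not tested. *MTSS1* mRNA itself was at 204.5 and 87.91 CPM (counts scaled to a common library total) in the control pools and at 103.6, 138.8, and 49.93 in the knockout pools. The groups overlapped, so that the mRNA level of the targeted gene does not check the labels of the libraries, and sgMTSS1_1 and sgMTSS1_2 target the first exon, whereas the reads come from the 3′ end. The study's methods state that loss of the protein was checked by immunoblot in the clones before they were pooled. The scaling used TMM factors. The libraries were of a 3′ kind, in which reads come from the 3′ end of the mRNA, so that levels of different genes were set side by side without a correction for length. The libraries were amplified by PCR and the treatment of duplicates is not given, so that CPM are not counts of molecules. Among the 14391 genes tested with the quasi-likelihood test of edgeR, 745 (5.18%) were called differentially expressed, which requires an adjusted p-value below 0.05 together with a log2-fold change beyond 1 in either direction, and of these 600 were higher and 145 lower in the knockout.

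Erythroid genes of the pathway are known to be driven by GATA factors, and the 250 bases before the transcription start are therefore printed from RefSeq (GRCh38.p14) for both isoenzymes of the first step, for the enzymes with the largest fold changes, and for the enzyme with the most GATA words. They are *ALAS1* (chr3:52197833-52198082, plus strand), *ALAS2* (chrX:55030978-55031227, minus strand), *UROD* (chr1:45012004-45012253, plus strand), *CPOX* (chr3:98593612-98593861, minus strand), and the downstream of a pair of *PPOX* starts (chr1:161166396-161166645, plus strand). Each is written 5′ to 3′ on the strand of the gene, and capitals mark a word bound by GATA factors such as GATA1, the regulator of red cell genes.
ALAS1: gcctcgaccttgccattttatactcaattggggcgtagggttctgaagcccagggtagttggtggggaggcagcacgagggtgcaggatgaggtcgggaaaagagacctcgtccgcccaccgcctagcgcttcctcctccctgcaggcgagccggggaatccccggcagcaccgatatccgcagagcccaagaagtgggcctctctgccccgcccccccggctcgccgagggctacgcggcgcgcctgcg
ALAS2: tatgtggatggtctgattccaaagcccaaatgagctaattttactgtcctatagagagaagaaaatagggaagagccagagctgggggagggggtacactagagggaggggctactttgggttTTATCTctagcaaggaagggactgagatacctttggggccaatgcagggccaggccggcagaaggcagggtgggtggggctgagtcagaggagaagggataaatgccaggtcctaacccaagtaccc
UROD: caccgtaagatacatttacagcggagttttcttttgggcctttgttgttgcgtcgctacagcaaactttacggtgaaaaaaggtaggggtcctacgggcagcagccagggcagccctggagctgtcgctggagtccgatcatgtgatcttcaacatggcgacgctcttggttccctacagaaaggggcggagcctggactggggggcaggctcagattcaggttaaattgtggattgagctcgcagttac
CPOX: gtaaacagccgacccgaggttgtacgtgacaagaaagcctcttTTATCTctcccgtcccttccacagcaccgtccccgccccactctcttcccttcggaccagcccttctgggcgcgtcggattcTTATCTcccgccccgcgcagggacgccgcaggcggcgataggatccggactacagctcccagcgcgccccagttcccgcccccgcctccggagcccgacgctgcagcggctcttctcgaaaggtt
PPOX: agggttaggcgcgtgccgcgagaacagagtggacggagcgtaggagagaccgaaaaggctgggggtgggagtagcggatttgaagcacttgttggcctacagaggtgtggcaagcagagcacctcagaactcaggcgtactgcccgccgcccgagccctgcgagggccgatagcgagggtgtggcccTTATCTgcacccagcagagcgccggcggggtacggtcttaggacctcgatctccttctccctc
The searched words were AGATAA with its variant AGATAG as well as TGATAA with its variant TGATAG, on both strands. TTATCT in capitals is the first of these words on the other strand. The *ALAS2* stretch held 1 such word, which begins 127 bases before the start site, and *CPOX* held 2, which begin 207 and 125 bases before it. The downstream *PPOX* start had 1 word at 63 bases before it, and the upstream start, which is not printed, had 0. The *ALAS1* and *UROD* stretches had no match.

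RefSeq windows were found for 7 of the 8 genes, with 9 windows in all, and *UROS* was without one. A GATA word stood in 4 of these 9 windows, 1 each of *ALAS2*, *CPOX*, *PPOX*, and *ALAD*. In *ALAD* the word begins 68 bases before the downstream start. Over all 35116 RefSeq windows of the same length, 22.3% held such a word. A GC box (GGGCGG, either strand), which is common in promoters of genes that are active in most cells, was present in 7 of the 9 windows, against 42.6% of all windows. The windows without it were those of *ALAS2* and of the upstream *PPOX* start. The CACCC box (CCACCC, either strand), which KLF1 and related factors bind, was found in 2 of the 9 windows, against 31.3% of all windows. They were those of *ALAS2* and of the downstream *PPOX* start. *ALAS2* had it at 60 and at 56 bases before the start, as 2 overlapping matches. G and C made up 52.8% of the *ALAS2* stretch and 67.2% of the *ALAS1* stretch, and the median over all windows was 58%. A match is a run of letters and was not tested for binding.

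*ALAS2* mRNA is also known for an iron-responsive element near its 5′ end, a stem-loop to which iron regulatory proteins bind when iron is scarce and which then blocks translation. The element lies at chrX:55030943-55030967 on the minus strand (GRCh38.p14), within the first exon, with its loop, in capitals, beginning at base 21 of the transcript.
ALAS2 element: cgttcgtcctCAGTGCagggcaaca
The pattern searched on the strand of the gene was a C, 5 bases, the loop CAGTG with any base but G after it, and 5 bases that pair with the first 5. It was found in 27 of the 35116 windows extended by 50 bases past the start (0.0769%), and among the 7 enzyme genes with windows in *ALAS2* alone. Counts of mRNA do not show the block of translation.

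In GENCODE release 44 on GRCh38, the genes are spread over the genome. *ALAS1* (ENSG00000023330) spans chromosome 3 from 52198086 to 52214327 on the plus strand, and *ALAS2* (ENSG00000158578) spans chromosome X from 55009055 to 55030977 on the minus strand. *ALAD* (ENSG00000148218) lies at 113386312 to 113401290 on chromosome 9 and *UROS* (ENSG00000188690) at 125784980 to 125823258 on chromosome 10, both on the minus strand. *UROD* (ENSG00000126088) and *PPOX* (ENSG00000143224) share the plus strand of chromosome 1, at 45010950 to 45015575 and 161166056 to 161178013. *CPOX* (ENSG00000080819) lies at 98579446 to 98593648 on chromosome 3 and *FECH* (ENSG00000066926) at 57544377 to 57586732 on chromosome 18, both on the minus strand. Their main transcripts have between 7 exons, in *CPOX*, and 13, in *PPOX*. Where the reads of a 3′ library fall, at the last 500 bases of the main transcript, *ALAS2* overlaps *APEX2* on the opposite strand. The use of strand in counting is not given in the sources used here, so that *ALAS2* and *APEX2* (504 counts over the 5 libraries) may share reads. *CPOX* overlaps a protein-coding gene without a symbol (ENSG00000285635) on the same strand there, which has no row in the count table, so that reads of both cannot be told apart by strand. *UROD* and *PPOX* overlap *HECTD3* (388 counts) and *B4GALT3* (1076 counts) on the opposite strand, but not at their own 3′ ends. *FECH* has a pseudogene, *FECHP1*, and reads that match both places were removed by the authors, so that the level of *FECH* is uncertain in this respect.

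None of the 8 enzyme mRNAs was called differentially expressed, with edgeR's quasi-likelihood test or with DESeq2 or limma-voom. At an unadjusted p-value below 0.05, 2 of the 8 passed, *UROD* and *PPOX*, both toward higher levels in the knockout, and of all tested genes 23.3% passed this limit. In *UROD* and *PPOX* every knockout pool lay above both control pools, which held for 22.2% of all tested genes. In *UROS* every knockout pool lay below both control pools, which held for 19.2% of all tested genes. The other 5 overlapped between the groups. The log2-fold changes were above 0 for 4 enzymes and below 0 for the others, from −0.42 for *UROS* to 1.11 for *PPOX*, with a median of 0.12. The median over all tested genes was −0.03, with quartiles of −0.50 and 0.54.

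**Figure D1:**
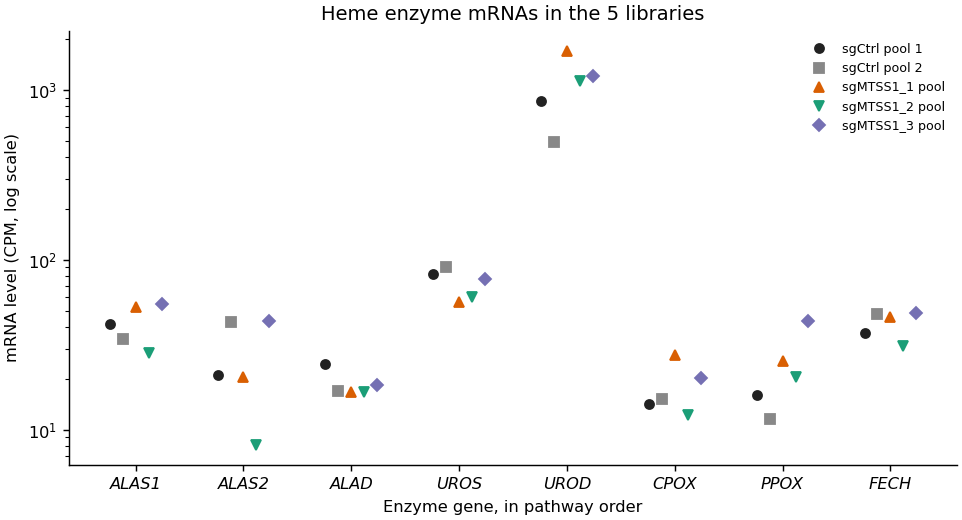
The mRNA level of each of the 8 enzymes in each of the 5 libraries, in TMM-scaled CPM on a log axis, with the genes in pathway order and 1 point per pool. *UROD* lies between 492.9 and 1691 CPM, far above the other enzymes, and the *ALAS2* point of knockout pool 2 is the lowest point, at 8.124 CPM.

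The enzymes stood at very unequal levels. *UROD* was the most abundant, with a mean of 1076 CPM over the 5 pools, at the 99.4th percentile of tested genes. *UROS* followed with 73.35 CPM and then *ALAS1* with 42.33 CPM, and this order of *UROD*, *UROS*, and *ALAS1* was present in 5 of 5 libraries. *ALAS1* and *FECH* (42.14 CPM) could not be put in order, since *ALAS1* was higher in 3 of the 5 libraries. *FECH* exceeded *ALAS2* (27.16 CPM) in all 5. The levels of *ALAS2*, *PPOX* (23.39 CPM), *ALAD* (18.6 CPM), and *CPOX* (17.82 CPM) did not differ beyond their spread, as neighbors kept their order in only 2 or 3 of the 5 libraries. *UROD* supplied 65.5% to 87.3% of the counts of the 8 genes. The median tested gene had 15.75 CPM, and every enzyme was at or above the 52.9th percentile.

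The first enzyme of the pathway is its main point of control. *ALAS1*, the isoenzyme of all tissues, was at 41.58 and 34.27 CPM in control pools 1 and 2 and at 52.66, 28.34, and 54.81 CPM in knockout pools 1, 2, and 3. The knockout pools thus lay on both sides of the controls. The log2-fold change was 0.26 (95% confidence interval −0.55 to 1.06; adjusted p = 0.713, edgeR), which leaves room for a change between 0.685-fold and 2.08-fold.

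*ALAS2*, the erythroid isoenzyme, was the most variable of the 8 mRNAs. It was at 20.95 and 42.91 CPM in the control pools and at 20.49, 8.124, and 43.32 CPM in the knockout pools. The control pools alone differed 2.05-fold and the knockout pools up to 5.33-fold, with knockout pool 2 lowest and knockout pool 3 level with control pool 2. The log2-fold change of −0.41 (95% confidence interval −1.74 to 0.91; adjusted p = 0.722, edgeR) was smaller than this spread, and the interval runs from 0.299-fold to 1.89-fold. Without control pool 2 the value turned to 0.22 and without knockout pool 2 to 0.02.

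The balance of the isoenzymes within a library does not depend on scaling. For each *ALAS1* count there were 0.504 and 1.25 *ALAS2* counts in the control, against 0.389, 0.287, and 0.79 in the knockout pools. Control pool 2 was the only library with more *ALAS2* than *ALAS1*. *ALAS2* was thus detected in all pools at 22.3% to 55.6% of the counts of both isoenzymes. The mean log2 ratio was −0.33 ± 0.92 (SD, n = 2) in the control and −1.16 ± 0.75 (SD, n = 3) in the knockout, a difference of −0.83 with p = 0.4 in a two-sided exact permutation test over samples. With 2 against 3 libraries, the smallest p this design allows is 0.1. Without control pool 2 the difference was −0.18, and without control pool 1 it was −1.49.

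*ALAD*, which joins 2 molecules of aminolevulinic acid in the cytosol, was the least variable enzyme among the knockout pools. Its values were 24.39 and 16.99 CPM in the control pools and 16.73, 16.61, and 18.27 CPM in the knockout pools, which differed by at most 1.1-fold among themselves. Knockout pool 3 lay between the control pools. The log2-fold change was −0.27 (95% confidence interval −0.99 to 0.46; adjusted p = 0.673, edgeR).

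*UROS*, whose product uroporphyrinogen III is the first ring of the pathway, was the enzyme with the lowest fold change. It was at 81.92 and 90.89 CPM in the control pools and at 56.42, 60.12, and 77.42 CPM in the knockout pools. All knockout pools were below both controls, though knockout pool 3 was close to control pool 1. The means were 86.41 ± 6.345 (SD, n = 2) and 64.65 ± 11.21 CPM (SD, n = 3), with a log2-fold change of −0.42 (95% confidence interval −1.06 to 0.23; adjusted p = 0.422, edgeR).

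*UROD*, which removes carboxyl groups from the side chains of the ring, had 855.1 and 492.9 CPM in the control pools and 1691, 1130, and 1209 CPM in the knockout pools. Every knockout pool was above both controls, and the control pools themselves differed 1.73-fold. The means were 674 ± 256.1 (SD, n = 2) and 1344 ± 303.8 CPM (SD, n = 3), and the knockout had 1.99-fold the control level (95% confidence interval 1.09 to 3.65). The log2-fold change was 1.0 with a standard error of 0.39, and it did not pass the threshold after Benjamini-Hochberg adjustment (adjusted p = 0.165, edgeR). The value moved between 0.68, without control pool 2, and 1.46, without control pool 1, and in the latter case alone *UROD* was called, at an adjusted p-value of 0.04998.

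*CPOX*, which acts between the membranes of the mitochondrion, was at 14.07 and 15.2 CPM in the control pools and at 27.37, 12.28, and 20.18 CPM in the knockout pools. The control pools were nearly equal, and knockout pool 2 lay below both while the others lay above. The log2-fold change was 0.45 (95% confidence interval −0.45 to 1.35; adjusted p = 0.542, edgeR).

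*PPOX*, which turns the ring into protoporphyrin, had the largest fold change of the 8. Its values were 15.95 and 11.62 CPM in the control pools and 25.29, 20.4, and 43.67 CPM in the knockout pools. All knockout pools lay above both controls, and knockout pool 3 was 2.14-fold above knockout pool 2. The means were 13.78 ± 3.057 (SD, n = 2) and 29.79 ± 12.27 CPM (SD, n = 3), and the knockout had 2.16-fold the control level (95% confidence interval 1.14 to 4.1). The log2-fold change of 1.11 with a standard error of 0.41 did not pass the threshold either (adjusted p = 0.147, edgeR). These values rest on 51 and 39 counts in the control pools, and 39 was the smallest count of any enzyme in any library. No alternative led to a call.

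*FECH*, the enzyme that inserts iron and carries an iron-sulfur cluster, had 36.89 and 47.68 CPM in the control pools and 46.18, 31.23, and 48.72 CPM in the knockout pools. The groups overlapped, and their means were 42.29 ± 7.627 (SD, n = 2) and 42.04 ± 9.447 CPM (SD, n = 3). The log2-fold change was −0.01 (95% confidence interval −0.73 to 0.71; adjusted p = 0.992, edgeR), and changes between 0.604-fold and 1.64-fold lie within this interval.

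**Figure D2:**
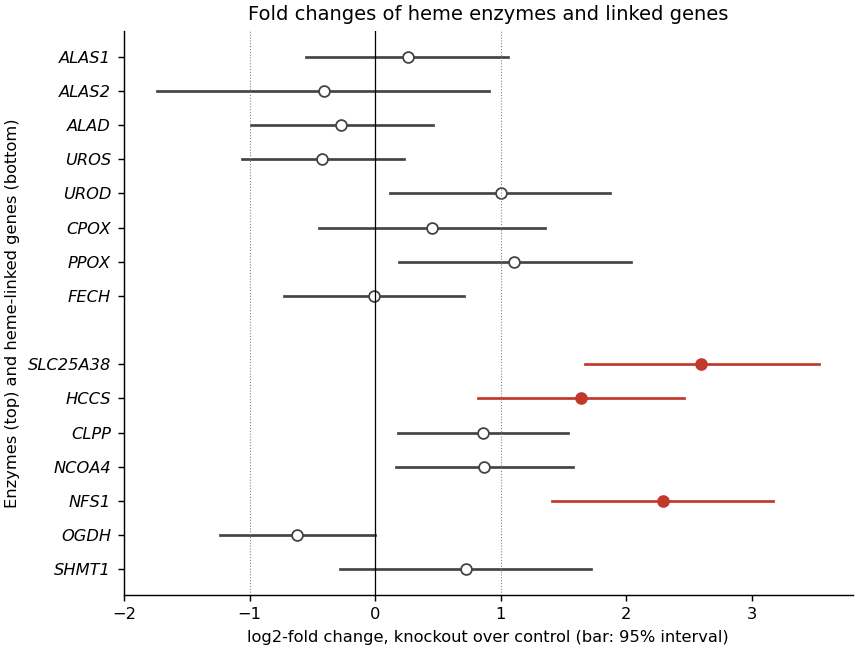
The log2-fold change of the knockout over the control for the 8 enzymes (top) and for 7 genes of heme-linked lists (bottom), as points with bars for 95% confidence intervals; filled points mark genes that were called and dotted lines stand at −1 and 1. Among the enzymes only the bars of *UROD* and *PPOX* lie wholly above 0, and no enzyme is filled, whereas *SLC25A38*, *HCCS*, and *NFS1* are.

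A pattern across the members was noticed after their values were seen. Knockout pool 2 was the lowest of the 3 knockout pools for 7 of the 8 enzymes, with *UROS* as the exception, and the lowest of all 5 pools for *ALAS1*, *ALAS2*, *ALAD*, *CPOX*, and *FECH*. Of 14123 tested genes with counts in all libraries, knockout pool 2 was the lowest of the knockout pools for 31% and of all pools for 10.3%. Knockout pool 3 was the highest of the knockout pools for 6 of the 8 enzymes, the others being *UROD* and *CPOX*. How often it was highest over all tested genes was not counted, so that nothing is read from this number. Erythroid markers moved with the pools in the same way, as 16 of the 21 that were tested were lowest in knockout pool 2 among the knockout pools, 5 in knockout pool 1, and 0 in knockout pool 3. The shares over the 14123 genes were 31%, 39.7%, and 29.3% for knockout pools 2, 1, and 3. The summed level of the erythroid markers was 5733 and 9340 CPM in the control pools and 5647, 3958, and 6460 CPM in the knockout pools. Its largest single part was the globin gene *HBA2*, at 2026 and 4880 CPM in the control pools and 1589, 1395, and 1986 CPM in the knockout pools. Of the 21 tested markers, 6 lay below both controls in every knockout pool (19.2% of all tested genes did), 3 lay above (22.2% of all), and 12 overlapped. The sum therefore does not show a shared loss of erythroid mRNAs. The summed megakaryocyte markers were at 142.3 and 96.85 CPM in the control pools and at 214.7, 253.7, and 219.9 CPM in the knockout pools, with knockout pool 2 highest. The progenitor markers summed to 223.8 and 213 CPM in the control against 318.1, 480.8, and 339.3 CPM in the knockout pools, again with knockout pool 2 highest. Both sums were thus above both controls in every knockout pool, but not all of their members were. Of the tested megakaryocyte markers 1 of 3 lay above both controls in every knockout pool, and of the progenitor markers 3 of 5, against 22.2% of all tested genes. The remaining ones overlapped, with log2-fold changes of −0.47 for *GP9*, 0.03 for *GP1BA*, −0.01 for *CSF2RA*, and 0.31 for *IL3RA*. Most of the megakaryocyte sum was *ITGA2B* in every knockout pool, at 192.6, 238.7, and 207.7 CPM. In knockout pool 2 most of each sum came from a single gene, *ITGA2B* at 238.7 CPM and *CD34* at 345.4 CPM. The other members were not all highest there. *GP9*, *GP1BA*, and *CSF2RA* were not, *KIT* and *IL3RA* were highest in knockout pool 3, and *CSF2RB* was highest in knockout pool 2. The part of these markers in the enzyme levels was not tested, and in pooled clones fewer cells of a type and less mRNA per cell cannot be told apart. Without *UROD*, the enzymes summed to 235.8 and 259.6 CPM in the control and to 245.1, 177.1, and 306.4 CPM in the knockout pools.

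**Figure D3:**
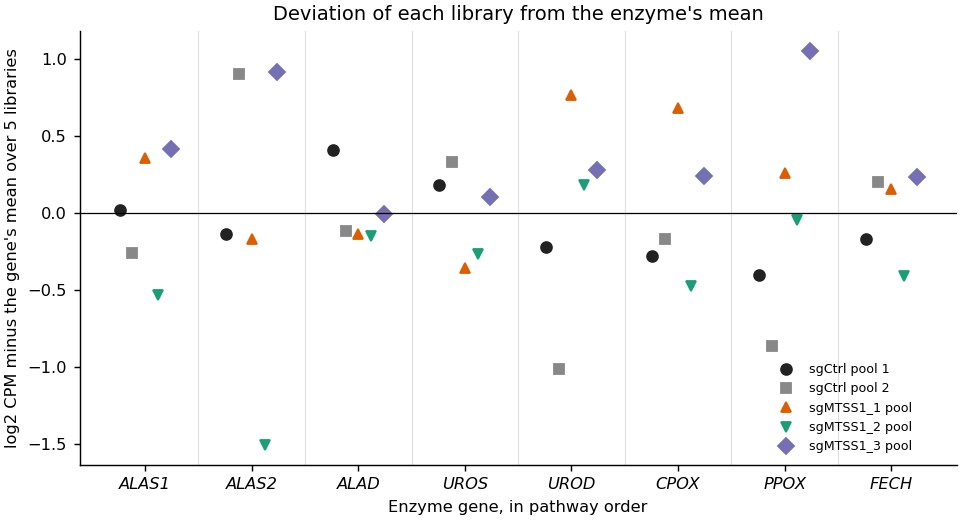
The deviation of each pool from the enzyme's mean over the 5 libraries, in log2 CPM, with 1 point per pool and the genes in pathway order. Knockout pool 2 (sgMTSS1_2) is lowest among the knockout pools for 7 of 8 enzymes and deviates most for *ALAS2*, whereas *UROD* and *PPOX* have all knockout pools above both control pools.

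The genes whose log2 CPM followed *ALAS1* most closely over the 5 libraries, of 6370 genes with a mean of at least 20 CPM, were *SAMM50* (Pearson's r = 0.988), which codes for a subunit of the machinery that sorts proteins into the outer mitochondrial membrane, *THUMPD3* (r = 0.975), and *TBC1D20* (r = 0.963). For *ALAS2* they included *SELENBP1* (r = 0.997), which codes for a selenium-binding protein, and the noncoding *MIR646HG* (r = 0.983). A coefficient over 0.9 was reached by 16 genes for *ALAS1* and by 19 for *ALAS2*. These coefficients describe 5 libraries that also differ in depth. The named genes were picked as the highest of 6370, and how many such coefficients unrelated genes would reach over 5 libraries was not tested.

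Other genes of heme metabolism were grouped in 5 lists with 58 members, of which 52 were tested and 3 (5.77%) were called, all higher in the knockout. The share is close to that of all tested genes (5.18%). The median log2-fold change of the 52 was 0.17.

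Of 15 genes for the transport of heme and its precursors, 12 were tested and 1 rose, with a median log2-fold change of 0.23. It was *SLC25A38*, whose protein brings glycine into the mitochondrion for the first step. *SLC25A38* was at 14.07 and 12.22 CPM in the control pools and at 93.91, 47.3, and 98.82 CPM in the knockout pools. All knockout pools lay far above both controls, with knockout pool 2 again the lowest of them. The knockout had 6.08-fold the control level (95% confidence interval 3.19 to 11.6; log2-fold change 2.60; adjusted p = 0.0131, edgeR), and without knockout pool 1 the adjusted p-value was 0.06124. *SLC25A38* lies on chromosome 3 from 39383370 to 39397351 on the plus strand and has 1 pseudogene, *SLC25A38P1*.

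Of 9 genes for the use and breakdown of heme, all were tested and 1 rose, with a median of −0.01. *HCCS*, which attaches heme to cytochrome c, was at 18.76 and 9.536 CPM in the control pools and at 45.53, 41.7, and 44.89 CPM in the knockout pools. The knockout pools were nearly equal and lay above both controls. The knockout had 3.11-fold the control level (95% confidence interval 1.76 to 5.5; log2-fold change 1.64; adjusted p = 0.0359, edgeR). The call was lost without control pool 2 (adjusted p = 0.0697) and without any one of the knockout pools (0.0723 to 0.109), and with scaling by library size alone (0.0566). At its 3′ end *HCCS* overlaps *ARHGAP6* on the opposite strand, so that reads of both may be mixed.

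Of 14 genes for the assembly of iron-sulfur clusters, which FECH carries, 13 were tested and 1 rose, with a median of 0.21. *NFS1*, the desulfurase that supplies the sulfur, was at 5.941 and 3.576 CPM in the control pools and at 24.26, 20.94, and 24.88 CPM in the knockout pools. The control values rest on only 19 and 12 counts. All knockout pools were above both controls. The knockout had 4.9-fold the control level (95% confidence interval 2.66 to 9.02; log2-fold change 2.29; adjusted p = 0.0159, edgeR), and the call was lost without knockout pool 1 (adjusted p = 0.0671) or 3 (0.0554). At its 3′ end *NFS1* overlaps a protein-coding gene without a symbol (ENSG00000272897) on the same strand, which has no row in the count table, so that reads of both cannot be told apart by strand. Elsewhere along its length it overlaps the abundant *ROMO1* (17436 counts over the 5 libraries) on the opposite strand.

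Of 9 genes that control ALAS or respond to heme, all were tested and 0 were called, with a median of −0.09 and 2 of the 9 at an unadjusted p-value below 0.05 in edgeR, close to the 23.3% of all tested genes. These were *CLPP*, a subunit of the mitochondrial protease that degrades ALAS1 (log2-fold change 0.86; adjusted p = 0.130, edgeR), and *NCOA4*, the receptor that takes ferritin to the lysosome (0.87; adjusted p = 0.134). Of 11 genes that supply succinyl-CoA and glycine, 9 were tested and 0 were called, with a median of 0.14 and 0 at an unadjusted p-value below 0.05. The smallest p-values belonged to *OGDH*, a subunit of the enzyme that makes succinyl-CoA (−0.62; adjusted p = 0.217), and to *SHMT1*, which makes glycine from serine (0.72; adjusted p = 0.373). DESeq2 and limma-voom called 0 genes of these lists as well.

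**Figure D4:**
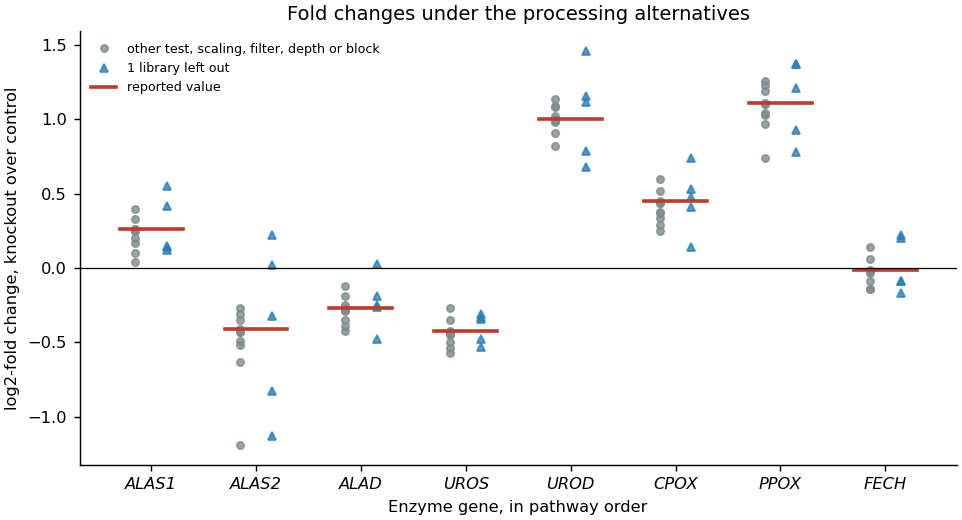
The log2-fold change of each enzyme as reported (red bar), with another test, scaling, filter, depth, or block (gray circles), and with 1 library left out (blue triangles). *UROD* and *PPOX* stay above 0 throughout, between 0.68 and 1.46 and between 0.74 and 1.37, *UROS* stays below 0, and *ALAS2*, *ALAD*, and *FECH* have values on both sides of 0.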

How the data were processed

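RNA-seq counts were analysed for 5 TF-1 libraries, assigned to control or *MTSS1* knockout by their labels. Per the labels and the study's methods, RNA was extracted with TRIzol, libraries were made with a QuantSeq 3′ FWD kit, and single-end reads of 50 bases were aligned to GRCh38. The submitters' processing notes name HISAT2 2.1.0, SAMtools 1.10, and FastQC 0.11.9. The authors removed reads without a unique place and deposited raw counts, 1 whole number for each Ensembl gene and library. The counter, its annotation and strand setting, and the treatment of duplicates are not given in the sources used here.

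Genes that passed filterByExpr (minimum count 10) were scaled by TMM in edgeR 4.0.16 (R 4.3.3) and tested with the quasi-likelihood test for the condition alone, adjusted by the Benjamini-Hochberg method over 14391 genes. Each library's floor, the CPM of 3 counts, was 0.389 to 0.938 and covers counting error only. Alternatives were DESeq2 1.42.0, limma-voom (limma 3.58.1), robust estimation, other scalings and filters, thinning, a replicate block, and each library left out. The enzymes, the lists, and the tests were chosen with earlier results of these data known. Named genes are the 8 enzymes, *MTSS1*, per list every gene called or else the 2 with the smallest p-value, and the 3 genes of most similar pattern to *ALAS1* and to *ALAS2*. Of the genes under this rule, 1 is not reported here. Positions come from GENCODE 44 and promoters from RefSeq (GRCh38.p14). Figures were made in Python 3.11.15 with matplotlib 3.10.9.

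Marker lists served as a check of cell identity. Of 21 erythroid markers tested 1 was called, lower, against 5.18% of all tested genes. Of 3 myeloid, 3 megakaryocyte, 5 progenitor, and 3 lymphoid markers tested, 0 were called, with 1 of each list at an unadjusted p-value below 0.05 in edgeR, against 23.3% of all tested genes. The summed levels were 5733 and 9340 CPM in the control and 3958 to 6460 in the knockout pools (erythroid), 152.3 and 136.2 against 126.4 to 149.1 (myeloid), 142.3 and 96.85 against 214.7 to 253.7 (megakaryocyte), 223.8 and 213 against 318.1 to 480.8 (progenitor), and 10.01 and 14.3 against 5.059 to 10.96 (lymphoid). The largest single part of the erythroid sum was *HBA2* in every library, and of the megakaryocyte sum *ITGA2B*.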

Additional observations from a re-analysis of the deposited data

How the results depend on the processing

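Of 745 called genes in all, DESeq2 gave 1357, a table with no filter on low counts 1374, and leaving out 1 library 111 (without knockout pool 1) to 1349 (without control pool 1). The number of called enzymes was 0 under every alternative except without control pool 1, where it was 1 (*UROD*), so that the range was 0 to 1. Of the heme-linked genes, 3 were called, 4 with DESeq2, 5 with the replicate block, and 0 (without knockout pool 1) to 5 (without control pool 1) with 1 library left out. With the replicate block 1094 genes and 0 enzymes were called, and *UROD* had a log2-fold change of 1.09 (adjusted p = 0.2007, edgeR), *PPOX* of 0.74, and *ALAS2* of −1.19. The numbers of the pools give 2 pairs, whose differences correlated with r = 0.17 over 14391 genes, and nothing says that pools of 1 number were handled together. With every library thinned to the smallest total, 691 genes, 0 enzymes, and 3 heme-linked genes were called. The log2-fold changes were then 0.98 for *UROD* and 1.23 for *PPOX*. The *ALAS2* to *ALAS1* log2 ratio differed by −0.65 after thinning and by −1.49 to −0.18 with 1 library left out. *FECH* turned from −0.01 to 0.14 with no filter, to 0.06 with at least 10 counts in every library, to 0.22 without control pool 2, and to 0.20 without knockout pool 2. With 1 library left out, *ALAD* ranged from −0.48 to 0.03 (without control pool 1), and *ALAS2* from −1.13 to 0.22 (without control pool 2), with 0.02 without knockout pool 2. The causes were not tested. Total counts in place of TMM shifted the median log2-fold change over all genes from −0.03 to −0.17 and over the enzymes from 0.12 to −0.02, and took the share of higher genes among those called from 80.5% to 71.0%. With 1 control left out, the lone control is assumed to vary like the knockout pools. At 2 against 3 pools the intervals of all enzymes but *UROD* and *PPOX* include 0.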

Other observations

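The erythroid markers, which include globins, red cell membrane proteins, and erythroid transcription factors, did not move together in the knockout pools. Of 21 tested markers, 3 lay above both controls in every knockout pool (22.2% of all tested genes did), 6 lay below (19.2% of all), and 12 overlapped, with a median log2-fold change of 0.05. The 3 above were *KLF1*, *TFRC* (log2-fold change 0.90; adjusted p = 0.199, edgeR), and *ANK1* (0.66; adjusted p = 0.286). The 6 below were *GATA1*, *HBA1*, *HBA2*, *HBZ*, *AHSP*, and *EPB42*. Fold changes ran from −1.83 for *HBZ* (adjusted p = 0.107, edgeR) to 1.49 for *HBD* (adjusted p = 0.156), which overlapped between the groups. The alpha-globin gene *HBA1* was the only one called, where 5.18% of all tested genes were. Its level was 1360 and 803.1 CPM in the control pools and 343.3, 240.6, and 392.5 CPM in the knockout pools, with a log2-fold change of −1.73 (95% confidence interval −2.55 to −0.91; adjusted p = 0.03, edgeR). All knockout pools lay below both controls, and knockout pool 2 was the lowest. *HBA2* is near-identical to *HBA1* and had a log2-fold change of −1.06 (adjusted p = 0.181, edgeR). Reads that match both genes were removed by the authors, so that the level of each is uncertain in this respect. The call of *HBA1* was lost without any one of the knockout pools (adjusted p = 0.0997 to 0.118, edgeR). Of the erythroid transcription factors, *GATA1* was at 110.1 and 80.76 CPM in the control pools and at 56.42, 62.64, and 75.16 CPM in the knockout pools. These knockout pools were all below both controls, with a log2-fold change of −0.56 that did not pass the test (adjusted p = 0.291, edgeR). *KLF1* went the other way, at 137.9 and 149.9 CPM in the control pools and 187.9, 184.9, and 254.5 CPM in the knockout pools. Its log2-fold change of 0.54 did not pass either (adjusted p = 0.317, edgeR). *TAL1* (0.07) and *NFE2* (−0.20) overlapped between the groups.

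Carriers of heme and its precursors other than *SLC25A38* were chosen here after their values were seen. *SLC48A1*, which codes for a heme transporter of the lysosome, was at 141.3 and 145.1 CPM in the control pools and at 52.53, 68.6, and 80.73 CPM in the knockout pools, 0.47-fold the control level (95% confidence interval 0.298 to 0.741; adjusted p = 0.0628, edgeR). It was called with DESeq2 and with the replicate block. *TMEM14C*, which codes for a protein that moves protoporphyrinogen within the mitochondrion, was at 43.15 and 18.48 CPM in the control pools and at 122.7, 47.84, and 56.2 CPM in the knockout pools, 2.46-fold the control level (1.12 to 5.4; adjusted p = 0.164), and was called with the replicate block alone.

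Markers of other lineages were unequal in level. Of the myeloid markers, *MPO* had 2 to 6 counts and *LYZ* 2 to 5 counts in each library, whereas the surface protein *CD33* was at 137.9 and 122.2 CPM in the control pools and at 103.4, 131.2, and 131.9 CPM in the knockout pools. *ITGAM*, an integrin chain of myeloid cells, was at 5.941 and 7.45 CPM in the control against 16.08, 12.82, and 10.27 CPM in the knockout pools (log2-fold change 0.96; adjusted p = 0.179, edgeR). *ITGA2B*, the integrin chain of megakaryocytes, was at 120.1 and 83.14 CPM in the control against 192.6, 238.7, and 207.7 CPM in the knockout pools (1.07; adjusted p = 0.0799). The megakaryocyte markers *GP9* (−0.47) and *GP1BA* (0.03) overlapped between the groups. The progenitor marker *CD34* was at 131.9 and 112.3 CPM in the control against 213.9, 345.4, and 168.1 CPM in the knockout pools (0.99; adjusted p = 0.148). For *ITGAM*, *ITGA2B*, and *CD34* every knockout pool lay above both controls, as for 22.2% of all tested genes, and knockout pool 2 was the highest for the latter 2. These genes, too, were chosen after their values were seen.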
